A study of Mus musculus with 68 samples.

Results

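S100a8 and S100a9 are the subunits of calprotectin, and the tumours with the highest levels of both are set here against those with the lowest. The samples were mammary tumours that arose in mice carrying the MMTV-PyMT transgene, in which a viral promoter active mainly in mammary epithelium expresses the middle T oncogene of polyoma virus. The mice came from a backcross of NZB and PyMT hybrids to FVB, so every animal in both groups carried the transgene, and the labels give no age, treatment or second genotype. The series holds 68 arrays in 1 group, numbered by animal. The arrays were chosen by measured values: 56 arrays with a mean level of the 18S control probe sets under 8 were kept, each from a different animal, and were ranked by the mean of S100a8 and S100a9, called the score below. The 18 arrays at the top (the high arrays) were compared with the 18 at the bottom (the low arrays), 36 of 68 in all, and 20 lay between them.

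Calprotectin fills the cytosol of neutrophils and binds zinc, manganese and calcium, and it is released when these cells are activated. The same proteins are made by stressed, wounded or cornifying keratinocytes. Neutrophils otherwise carry a set of receptors such as Csf3r and Cxcr2 and load their granules during maturation with proteins such as Ngp, Camp and Ltf, so that calprotectin alone does not name the cell it came from. In RNA from whole tumours, fewer cells of a type and less RNA per cell cannot be told apart.

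The promoters of the score's genes, of Ngp, and of the called genes Saa3 and Ankrd37 are shown because the results below turn on these genes. Each run is the 250 bases before the gene's start, 5′ to 3′ on the gene's strand, from RefSeq on GRCm38.p6: S100a8 at chr3:90668821-90669070 (plus strand), S100a9 at chr3:90695722-90695971 (minus), Ngp at chr9:110419558-110419807 (plus), Saa3 at chr7:46715677-46715926 (minus) and Ankrd37 at chr8:45999851-46000100 (minus). Capitals mark, on either strand, the C/EBP motif TTGCNNAA in the first 4 genes and the hypoxia response core ACGTG in Ankrd37.
S100a8: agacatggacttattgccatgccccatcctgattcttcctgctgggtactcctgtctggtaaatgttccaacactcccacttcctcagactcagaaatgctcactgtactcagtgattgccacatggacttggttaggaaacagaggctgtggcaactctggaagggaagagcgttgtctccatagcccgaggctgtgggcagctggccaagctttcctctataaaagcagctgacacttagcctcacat
S100a9: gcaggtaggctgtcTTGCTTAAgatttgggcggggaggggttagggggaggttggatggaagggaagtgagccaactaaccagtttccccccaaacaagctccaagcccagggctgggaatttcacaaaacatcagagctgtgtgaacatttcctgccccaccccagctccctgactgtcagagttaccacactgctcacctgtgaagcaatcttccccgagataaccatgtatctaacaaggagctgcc
Ngp: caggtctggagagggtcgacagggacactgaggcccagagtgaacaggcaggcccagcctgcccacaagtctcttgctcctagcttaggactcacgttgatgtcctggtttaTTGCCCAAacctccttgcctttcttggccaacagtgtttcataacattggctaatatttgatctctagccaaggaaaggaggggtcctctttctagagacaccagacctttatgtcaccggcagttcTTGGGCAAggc
Saa3: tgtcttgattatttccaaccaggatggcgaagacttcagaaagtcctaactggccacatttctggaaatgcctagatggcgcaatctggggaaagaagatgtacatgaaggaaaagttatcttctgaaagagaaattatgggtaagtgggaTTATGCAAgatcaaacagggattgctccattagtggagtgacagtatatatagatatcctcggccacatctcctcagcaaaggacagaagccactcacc
Ankrd37: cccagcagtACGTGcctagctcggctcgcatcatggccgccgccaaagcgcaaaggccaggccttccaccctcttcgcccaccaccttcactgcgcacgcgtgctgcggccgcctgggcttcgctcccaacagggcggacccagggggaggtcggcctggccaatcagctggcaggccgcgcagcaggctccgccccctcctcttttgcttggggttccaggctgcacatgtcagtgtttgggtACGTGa

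The S100a8 window held 0 matches to the C/EBP motif, those of S100a9 and Saa3 1 each, and that of Ngp 2. Over 27025 mouse promoters of the same length, 9.55% held the C/EBP motif and 16.6% the hypoxia core. Ankrd37 held the core 2 times, Ngp 1 time (not marked above), and S100a8, S100a9 and Saa3 0 times. A match describes letters in a window and shows no binding.

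S100a8 ranged in the high arrays from 9.81 to 12.26 (median 10.57) and in the low arrays from 7.45 to 10.05 (median 8.87), in log2 units. S100a9 ranged from 6.50 to 10.02 (median 8.24) in the high arrays and from 3.88 to 6.83 (median 5.66) in the low arrays. These values chose the groups and are given as a description. The score went from 8.52 to 11.05 in the high arrays and from 6.04 to 7.77 in the low arrays. The last high array had a score of 8.517, and the first array outside it 8.484. At the other boundary the 2 arrays scored 7.7739 and 7.7742, so the low group ends where no gap exists. Each gene overlapped between the groups although the score did not: the highest low array for S100a8, from animal 3855 at 10.05, exceeded 2 high arrays, those of animals 3853 (9.81) and 3042 (9.99).

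**Figure D1:**
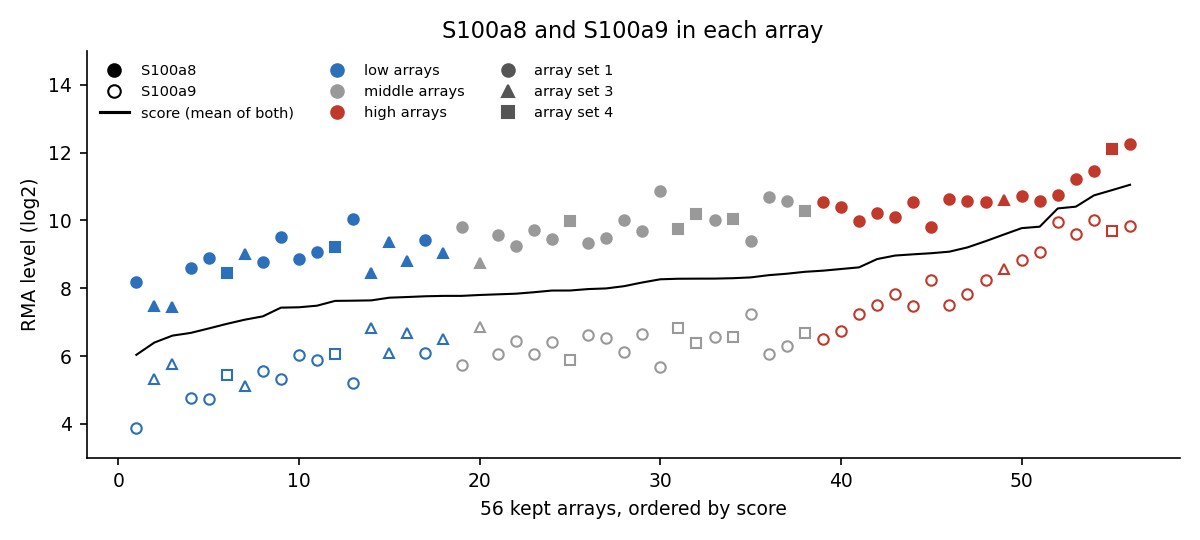
Levels of S100a8 (filled) and S100a9 (open) in each of the 56 kept arrays, ordered by score (line), in log2 units. Colours mark the low, middle and high arrays, and symbols the array set; scores rise gently through the middle and steeply over the top arrays to 11.05.

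The arrays also fall into sets that no label names, found from probe sets on many chromosomes that split the arrays the same way. The 12 arrays left out for their 18S level are array set 2. Of the high arrays 16 belonged to array set 1, 1 to array set 3 and 1 to array set 4, and of the low arrays 9, 7 and 2. Array set 1 was more frequent in the high group (Fisher's exact test, two-sided, p = 0.0275, adjusted over 4 labels 0.0816). The suffix R in the title, whose meaning is not given, marked 1 high and 6 low arrays (p = 0.0877, adjusted 0.117). The Gapdh 3′ minus 5′ difference, a measure of RNA integrity, was lower in the high arrays (difference of means -0.12, two-sided permutation test with 100000 draws, p = 0.0101, adjusted over 4 measures 0.0406). Within array set 1 the difference was -0.0046 (p = 0.868). The array set therefore entered the comparison of the 36 arrays as a block. Unless another fit is named, each difference below is the high minus the low arrays in log2 units with its standard error (SE).

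The luminal mammary list had a mean level of 9.10 to 9.58 in the high and 8.56 to 9.79 in the low arrays, so both groups carried mammary epithelial RNA. Of its 12 tested members 0 passed the test, with 1 higher and 2 lower at an unadjusted p under 0.05 (limma). Over all 12560 genes tested that unadjusted share was 8.93% higher and 7.31% lower.

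Across all genes, the called genes higher in the high arrays included Krt6b, Krt16 and Krt73, the serum amyloid genes Saa2 and Saa3, Adm and Ndrg1, which respond to hypoxia, and the metallothionein Mt2. Those that were lower were led by Ptx3 and otherwise had small differences. With limma and the Benjamini-Hochberg adjustment at 0.05, 73 of 12560 genes were higher (0.581%) and 28 were lower (0.223%). The higher genes differed by 0.22 to 2.63 and 18 of them by more than 1, whereas the lower genes differed by -0.13 to -0.93. No tested gene had every high array above every low array (0 of 12560, 0%). The calls sat close to the threshold, with adjusted p from 0.0238 to 0.0496. They also hung on single arrays: without the array of animal 3039 or of 4980, the only high arrays of array sets 3 and 4, or of animal 3289, the array with the lowest score, 0 genes were called, and without animal 3824 3 were called. In array set 1 alone 0 genes passed the adjusted threshold, 588 were higher (4.68%) and 513 lower (4.08%) at an unadjusted p under 0.05, and 72 of the 73 and 28 of the 28 were among these. These 25 arrays are part of the 36 that gave the calls, so the shared directions are no independent support.

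**Figure D2:**
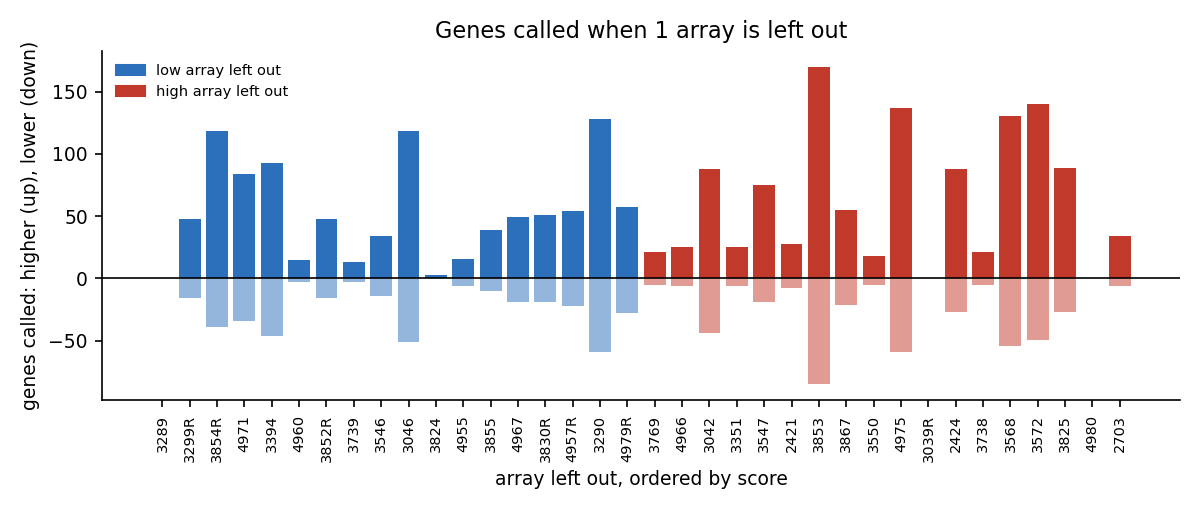
Number of genes called higher (upward bars) and lower (downward bars) when the array named on the horizontal axis was left out, arrays in order of score. Counts of higher genes ran from 0, without 3289, 3039R or 4980, to 170 without 3853.

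**Figure D3:**
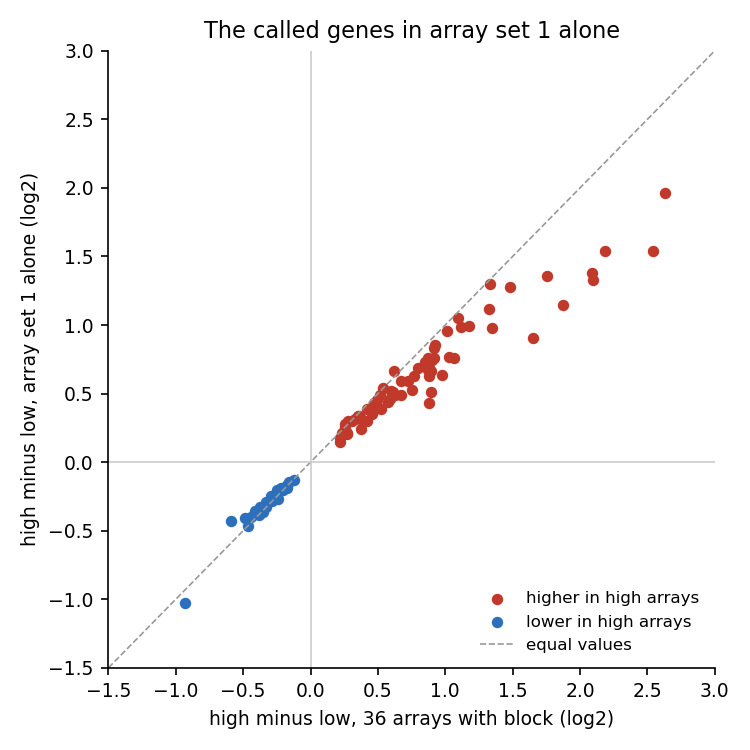
Difference between high and low arrays for the 101 called genes, over all 36 arrays with the block (horizontal) and in the 25 arrays of array set 1 alone (vertical), in log2 units. Every point lies on the same side of 0 in both, and the largest differences, such as 2.63 for Crct1, are smaller in array set 1 (1.96).

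Genes of neutrophils themselves gave a mixed picture: over the lists of surface receptors, granule proteins and cytosolic proteins, 2 of 22 tested members were higher and 0 lower, against 0.581% and 0.223% of all genes. At an unadjusted p under 0.05, 9 of the 22 were higher and 0 lower, against 8.93% and 7.31%, and 17 differences lay above 0 (limma). With the score as a continuous term over the 56 arrays 7 of the 22 were called higher and 0 lower, against 2.29% and 1.39%. The 2 called members were Prtn3 and Padi4. Over the 56 kept arrays Prtn3 had a Pearson r of 0.24 with Ngp. Padi4 had 0.03 with Ngp and 0.77 with the keratin Krt6b. Over the 18 high arrays these values were -0.07, -0.41 and 0.79. Of the 34 members on the array, 12 did not pass the filter on low values. The groups are named here by their calprotectin level, which is what chose them. The surface receptor list had 7 tested members, of which 0 passed the test in either direction (1 higher and 0 lower at an unadjusted p under 0.05), with a median difference of 0.08 against -0.01 over all genes tested. Csf3r, the receptor for granulocyte colony-stimulating factor, ranged from 5.32 to 6.31 (median 5.85) in the high and from 5.16 to 6.02 (median 5.59) in the low arrays, and 3 high arrays exceeded every low array. Its difference was 0.13 (SE 0.07, adjusted p = 0.356, limma). Fpr2, a receptor for formyl peptides, differed by 0.32 (SE 0.12, adjusted p = 0.178). Itgam, the alpha chain of the Mac-1 integrin, differed by 0.003, and Clec4d, Il1r2, Cd300lf and Pilra by -0.01 to 0.25. The chemokine receptor Cxcr2, with Trem1, Trem3, Clec4e and Itgb2l, stayed under the filter on low values. Cxcr2 had medians of 4.11 in the high and 3.96 in the low arrays, below the median of all values on the arrays, 5.42.

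Of 9 tested granule proteins 1 was higher and 0 were lower, with a median difference of 0.52, and 5 were higher and 0 lower at an unadjusted p under 0.05. The continuous score called 4 of them higher, among them Ngp (adjusted p = 0.000416), Mmp9 (0.000755) and Camp (0.00183). Prtn3, proteinase 3 of the azurophil granules, ranged from 8.09 to 10.21 (median 8.64) in the high and from 6.91 to 8.45 (median 7.98) in the low arrays. 14 of the 18 high arrays lay above every low array for Prtn3. The difference was 1.01 (SE 0.20, adjusted p = 0.0282), and 0.96 in array set 1. The other azurophil genes were under the filter on low values: Mpo had medians of 4.06 and 3.81, Elane of 4.84 and 4.77 and Ctsg of 4.82 and 4.76 in the high and low arrays. Of the high arrays 7, 6 and 6 lay above every low array for these genes, and in the fit without the filter Mpo differed by 0.40 (adjusted p = 0.334). Ngp, the neutrophilic granule protein, ranged from 4.49 to 8.27 (median 5.11) in the high arrays and only from 4.37 to 4.84 (median 4.54) in the low arrays. Its difference was 1.06 (SE 0.32, adjusted p = 0.0852). 13 of the 18 high arrays lay above every low array for Ngp, some of them only slightly. The arrays of animals 4980, 2421, 4966, 3042, 3853 and 2703 had Ngp at 4.93, 4.94, 4.96, 5.01, 5.20 and 5.27. These values lay under 5.42, the median of all values on the arrays. The others of the 13 ran from 5.54 to 8.27. Camp, the cathelicidin antimicrobial peptide, differed by 0.54 (SE 0.20, adjusted p = 0.158), with up to 6.93 in the high and 4.86 in the low arrays. Chil3, a chitinase-like protein also made by macrophages, stayed under the filter, but reached 6.44 in the high arrays and 3.46 in the low arrays. Mmp9, gelatinase B, differed by 0.52 (adjusted p = 0.0794) and Pglyrp1, a peptidoglycan-binding protein, by 0.93 (adjusted p = 0.12). Ltf and Lcn2, granule proteins that mammary epithelium also makes, stood near the top of the scale in both groups, with medians of 12.40 and 12.41 for Ltf and 13.26 and 13.33 for Lcn2. Their differences were -0.03 and -0.05.

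Among 6 tested cytosolic proteins 1 was higher and 0 were lower, with 3 higher and 0 lower at an unadjusted p under 0.05. Padi4, the peptidylarginine deiminase that citrullinates histones in neutrophil extracellular traps, ranged from 4.76 to 7.95 (median 5.62) in the high and from 4.45 to 5.26 (median 4.90) in the low arrays. It was above every low array in 12 high arrays, and its difference was 0.88 (SE 0.22, adjusted p = 0.0496). The stefin Stfa3, a cysteine protease inhibitor, differed by 1.97 (SE 0.55, adjusted p = 0.0703). Alox5ap, needed for leukotriene synthesis, differed by 0.37 (adjusted p = 0.17), and Hdc, G0s2 and Wfdc21 by 0.12, -0.001 and -0.02.

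Of the 4 tested granulocyte transcription factors 0 passed the test (0 at an unadjusted p under 0.05), and Cebpa, Cebpb, Cebpd and Spi1 differed by -0.14 to -0.001. The NADPH oxidase, which makes the oxidative burst, had 0 of 5 tested genes past the threshold and 0 at an unadjusted p under 0.05, with differences from -0.04 for Cybb to 0.11 for Rac2. Attractants and growth factors for neutrophils also had 0 of 6 past the threshold and 0 at an unadjusted p under 0.05. Csf3, which drives neutrophil production, differed by 0.38 (SE 0.22, adjusted p = 0.408), and Cxcl1, a ligand of Cxcr2, by 0.06. The other 9 members on the array were under the filter on low values, and Cxcl5, another Cxcr2 ligand, differed by 0.49 in the fit without the filter (adjusted p = 0.142). Of the calprotectin receptors and their adaptors 0 of 7 passed, and 0 at an unadjusted p under 0.05. Tlr4, the toll-like receptor that calprotectin can engage, differed by 0.05 (adjusted p = 0.845). Ager, a multiligand receptor, differed by -0.07.

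Calprotectin's relatives behaved unevenly. Of 9 other tested S100 genes 0 passed the test in either direction (2 higher and 0 lower at an unadjusted p under 0.05, limma). S100a14, an epithelial S100 protein, ranged from 5.27 to 10.02 (median 7.03) in the high and from 4.78 to 8.18 (median 6.02) in the low arrays, with a difference of 1.55 (SE 0.42, adjusted p = 0.0629). S100a3, known from the hair cuticle, reached 10.05 in the high and 4.54 in the low arrays, with a difference of 1.35 (adjusted p = 0.118). S100a6 and S100a10, which lie on the same chromosome, differed by 0.05 and 0.07, and S100a4 by -0.31.

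The largest differences belonged to keratinising epithelium. Of 17 tested genes of squamous epithelium and skin 4 were higher and 0 lower, with a median difference of 1.47, and of 8 tested hair follicle genes 2 were higher and 0 lower, with a median of 2.24. In array set 1 alone these medians were 0.83 and 1.58, and 0 members passed (in the 36 arrays 15 squamous and 8 hair follicle genes were higher and 0 lower at an unadjusted p under 0.05). Krt6b, a keratin of hair follicles and wounded epidermis, ranged from 4.30 to 11.09 (median 6.0) in the high arrays and from 4.32 to 6.06 (median 4.5) in the low arrays. Both groups began at nearly the same level, and 9 of the 18 high arrays lay above every low array. Its difference was 2.54 (SE 0.61, adjusted p = 0.0412). Krt16, the partner of the Krt6 keratins, ranged from 3.89 to 9.56 (median 4.84) in the high and from 3.64 to 4.44 (median 4.06) in the low arrays, with a difference of 2.10 (SE 0.48, adjusted p = 0.041). Sprr1b and Sbsn, proteins of the cornified envelope and the upper epidermis, differed by 1.65 and 0.89. Crct1, a cysteine-rich protein grouped here with hair follicle genes, had the largest difference of all called genes, 2.63 (SE 0.64, adjusted p = 0.0416), and exceeded every low array in 11 high arrays. Padi3, which deiminates hair and epidermal proteins, differed by 1.75 and the hair sheath keratin Krt73 by 2.18. Klk6, a secreted serine protease, and Sprr2h were higher by 2.09 and 1.88.

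Basal cells gave a split picture, with 1 of 11 tested genes higher and 0 lower (4 and 1 at an unadjusted p under 0.05). Krt17, a keratin of basal and stressed epithelium, was higher by 1.33 (SE 0.30, adjusted p = 0.0366). Its ranges overlapped, 5.22 to 9.97 against 5.18 to 8.06, with 2 high arrays above every low array.

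The high arrays were of unlike kinds when Ngp and Krt6b were set side by side. Above the highest low array for Ngp (4.84) lay 13 of the 18 high arrays, some of them only slightly and under 5.42. Above the highest for Krt6b (6.06) lay 9, 4 lay above both and 0 above neither. The arrays of animals 3568, 3825, 3572, 4975 and 2424 had Ngp at 8.27, 7.70, 7.45, 6.40 and 6.32, and Krt6b between 4.30 and 4.52, against a median of 4.5 in the low arrays. In contrast, the arrays of animals 3039, 4980, 2703, 2421, 3867, 3351, 3550 and 3769 had Krt6b at 11.09, 10.66, 10.61, 8.70, 8.58, 8.11, 8.10 and 6.99, and Ngp between 4.49 and 5.27. The array of animal 3738 was high for both, with Ngp at 7.32 and Krt6b at 6.55. The array of animal 3547 stood nearer to the arrays high for Ngp, with Ngp at 5.54 and Krt6b at 4.36. Its Camp was 5.44, against 5.47 in the array of 4975 and at most 4.86 in the low arrays. The remaining high arrays, those of animals 3853, 3042 and 4966, stood clearly with neither set. They had Ngp only slightly above the low arrays, at 5.20, 5.01 and 4.96, and Krt6b between 4.53 and 5.45. Among the 20 arrays in the middle, 4 exceeded the low arrays for Ngp and 1, that of animal 5000, for Krt6b. The Pearson r between Ngp and Krt6b was -0.62 over the 18 high arrays and -0.06 over the 56 kept arrays. Neutrophils and keratinocytes both make calprotectin, so an array could enter the high group through either. Choosing arrays by the score thus favours such a pattern, which does not show tumours of 2 opposed kinds. These arrays are named after their values were seen, and no test was made between them.

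**Figure D4:**
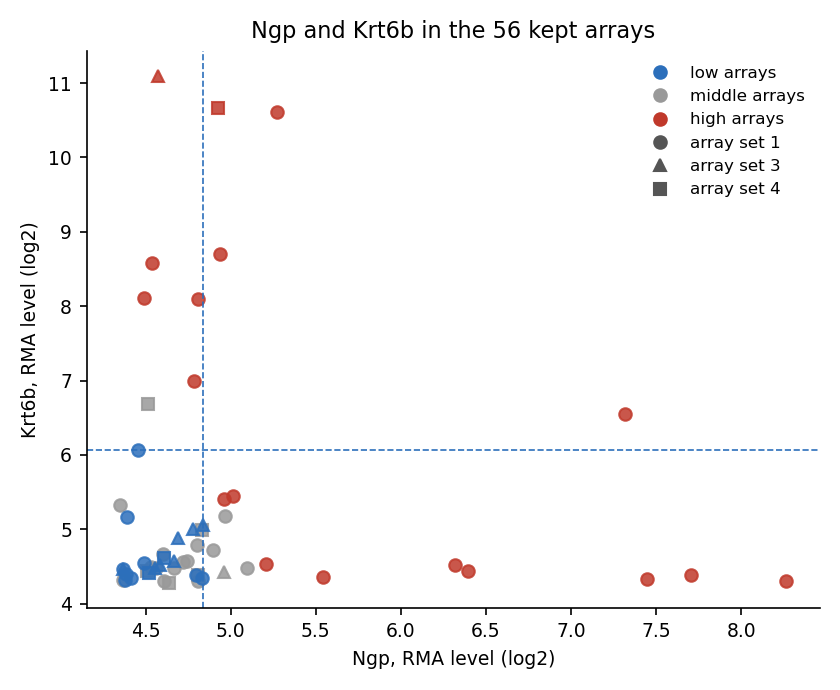
Ngp against Krt6b in the 56 kept arrays, in log2 units, coloured by group and with symbols for the array set. Dashed lines mark the highest low array for each gene, 4.84 and 6.06; the high arrays spread along either axis, and 4 lie above both lines, 1 of them with Ngp at 7.32.

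Other genes sorted with one kind or the other. Camp was highest in the arrays of 3568, 3825 and 3572, at 6.93, 6.47 and 6.10, and among the high arrays Chil3 in those of 3572, 3825 and 3568, at 6.44, 5.94 and 4.93. Padi4 and Stfa3 stand on the neutrophil lists, yet Padi4 was highest in the keratin-rich arrays of 2703, 4980 and 3769, at 7.95, 7.31 and 6.49. Stfa3 was highest in 4980, 3039 and 2421, at 8.71, 8.58 and 7.02, and was 2.49 in 3568, the array with the most Ngp. Mmp9 too peaked in 4980 and 2703, at 7.30 and 6.34. Mt2 ran from 10.45 to 11.95 in the keratin-rich arrays named above, from 3039 to 3769. In the arrays of 3568, 3825, 3572, 4975 and 2424 it ran from 9.27 to 10.37. Ak4 ran from 7.25 to 9.69 in the keratin-rich arrays and from 6.18 to 8.49 in those of 3568 to 2424. Saa3 ran from 7.53 to 10.56 and from 7.30 to 8.84, so that both genes overlapped. Prtn3 was spread over both kinds and beyond them. Its 3 highest values among the high arrays were 10.21 in 3572, 9.60 in 4966, which stood with neither kind, and 9.39 in 3550. The middle arrays of 5000 and 4950 reached 9.74 and 9.64.

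With the mean of the squamous list added to the fit, 0 of 12543 genes passed the threshold in either direction (558 higher, 4.45%, and 294 lower, 2.34%, at an unadjusted p under 0.05, limma). The keratinising genes lost most of their difference in this fit, with 0.33 for Crct1 and 0.23 for Krt73, as did Padi4, with 0.17. Such a loss was bound to follow for genes that vary with the list, and is no finding. Over the 56 kept arrays, Krt6b of the list had a Pearson r of 0.92 with Crct1 and 0.77 with Padi4. The added term itself differed between the groups, with means of 6.18 in the high and 5.08 in the low arrays. Prtn3 differed by 0.92 (adjusted p = 0.411), Saa2 by 1.12 (0.595) and Adm by 1.10 (0.627). Ngp differed by more in this fit, 1.74, with an adjusted p of 0.0568. Among the 18 high arrays Ngp ran against Krt6b of the list (r of -0.62), a pattern that choosing arrays by the score favours. The larger difference of Ngp is therefore no finding either.

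Acute phase and inflammatory epithelial genes had 2 of 15 tested members higher and 0 lower (5 and 0 at an unadjusted p under 0.05). Saa3, a serum amyloid A protein made by inflamed tissue, ranged from 7.30 to 10.56 (median 8.74) in the high and from 5.54 to 8.73 (median 7.71) in the low arrays. 9 high arrays lay above every low array, and the difference was 1.35 (SE 0.30, adjusted p = 0.0366). Saa2 differed by 1.09 (SE 0.27, adjusted p = 0.0496), and 7 high arrays exceeded every low array. Saa1 and Saa2 are near-identical copies, so that their probe sets may read both. Tnfaip3, which restrains NF-kappaB signalling, was the only called gene of 10 tested feedback genes, at 0.38 (SE 0.09, adjusted p = 0.0412).

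Hypoxia and glycolysis genes had 5 of 16 tested members higher and 0 lower (12 and 0 at an unadjusted p under 0.05), and 16 of the 16 differences were above 0 against 5979 of 12560 genes tested. The median was 0.51, and 0.44 in array set 1. Adm, adrenomedullin, a vasodilator peptide, ranged from 6.55 to 10.37 (median 8.31) in the high and from 6.14 to 9.70 (median 7.17) in the low arrays, with a difference of 1.33 (SE 0.30, adjusted p = 0.0366). The groups overlapped and 2 high arrays exceeded every low array. Ankrd37, shown above with its promoter, differed by 1.18 (SE 0.28, adjusted p = 0.0412). Ndrg1, a stress-response protein, and Bnip3, a mitophagy receptor, differed by 0.92 and 0.91. Pgk1, phosphoglycerate kinase, was called too (0.52), chosen for mention after its value was seen, while Vegfa (0.83) and Car9 (0.26), chosen in the same way, did not pass. Ak4, a mitochondrial adenylate kinase outside the list, was higher by 1.48 (SE 0.31, adjusted p = 0.0282). The hypoxia core was present in the promoter window of 10 of the 15 tested list members with a window (66.7%), of 19 of 57 called higher genes (33.3%), of 1 of 24 called lower genes (4.17%) and of 21.6% of all tested genes with a window. The list was made of genes of the hypoxia response, so its share was likely beforehand and is no result of these tumours. Its 5 called members also count among the called higher genes, and no test was made of these shares. The C/EBP motif was present in 0 of the 15 list members, 10.5% of the called higher genes (6 of 57), 29.2% of the called lower genes (7 of 24) and 7.33% of all tested genes with a window.

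**Figure D5:**
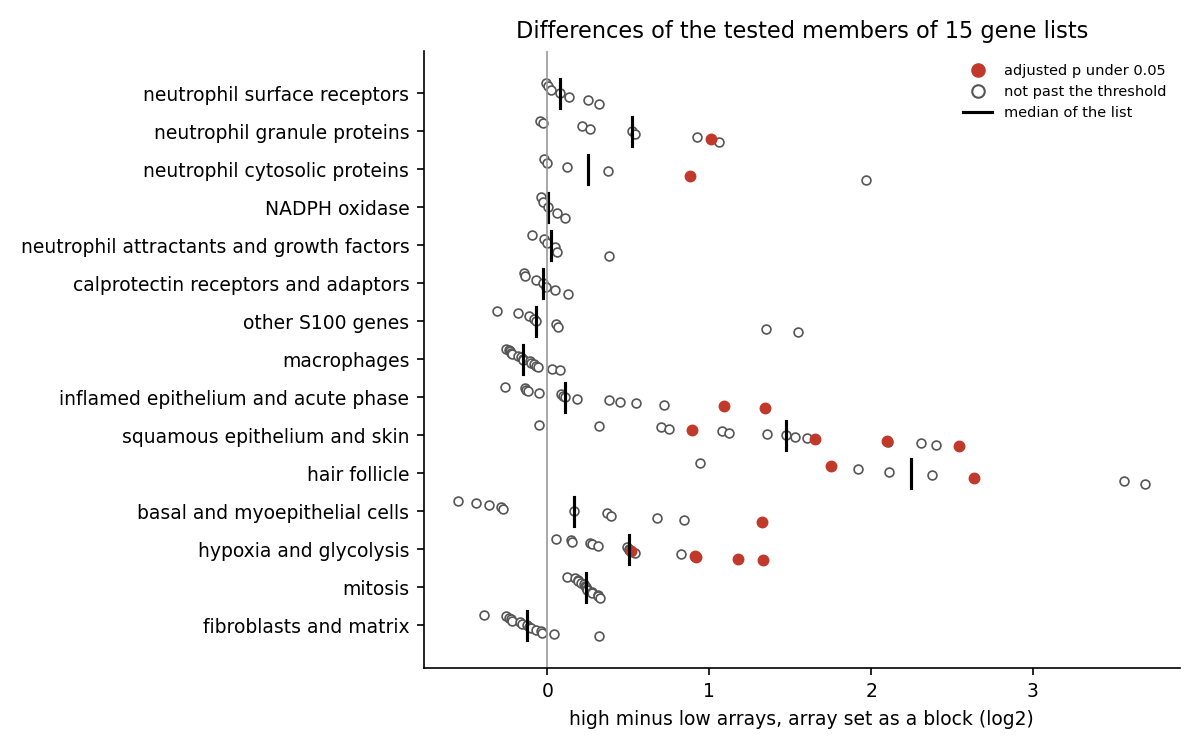
Difference between high and low arrays, in log2 units with the array set as a block, of the tested members of 15 gene lists. Filled points passed an adjusted p of 0.05, and bars mark list medians, from 2.24 for hair follicle genes to -0.15 for macrophages.

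Mt2, a metallothionein that binds zinc and copper, ranged from 9.08 to 11.95 (median 10.47) in the high and from 8.88 to 10.22 (median 9.42) in the low arrays. 12 high arrays lay above every low array, its difference was 1.11 (SE 0.20, adjusted p = 0.0238), and it was called in 33 of 36 fits that each left out 1 array. All the keratin-rich arrays named above were among these 12. Of the arrays of 3568, 3825, 3572, 4975 and 2424, high for Ngp, only that of 3825 was. Mt1, named after its value was seen, was also higher, by 0.60 (adjusted p = 0.0306).

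The lower genes had smaller differences. Ptx3, a secreted pattern recognition protein of the pentraxin family, ranged from 6.12 to 8.79 (median 7.5) in the high and from 7.45 to 9.74 (median 8.28) in the low arrays, with a difference of -0.93 (SE 0.22, adjusted p = 0.0412) and of -1.02 in array set 1. Npr2, a receptor for C-type natriuretic peptide, differed by -0.59, and Nqo1, a quinone reductase induced by oxidative stress, by -0.49 (adjusted p = 0.0412). Kitl, the ligand of Kit, differed by -0.44 (adjusted p = 0.0306), the nucleoside transporter Slc29a1 by -0.46 and Gas1, a growth arrest gene, by -0.41. The other 9 of the 15 lower genes with the largest differences, Nsmf, Tmem8b, Tcaf1, Ccl27a, Sorbs2, Msrb2, Ncdn, Etnk1 and Echdc2, lay between -0.38 and -0.29.

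Markers of cell types outside keratinising and basal epithelium and neutrophils gave 0 calls. Macrophage genes had 0 of 16 past the threshold and 0 at an unadjusted p under 0.05, with a median of -0.15 and with C1qa at -0.25. The list's mean level was 7.91 to 9.23 in the high and 7.59 to 9.19 in the low arrays. Monocytes (8 tested, 0 higher and 1 lower unadjusted), dendritic cells (6), mast cells (6), T and NK cells (8), B and plasma cells (6) and MHC class II genes (5) likewise had 0 calls, and 0 unadjusted in the last 5. The eosinophil and basophil list had 0 members over the filter of 6 on the array. Fibroblasts (15), adipocytes (8), skeletal muscle (12) and interferon genes (13) had 0 calls and 0 unadjusted. Milk protein genes (13) had 0 calls with 1 higher and 1 lower unadjusted, and salivary gland (5), endothelium (10), DNA replication (15) and the erythroid gene Alas2 had 0 with 1 higher each. Leukocyte adhesion (8), wound response (8), oxidative phosphorylation (13) and immediate early genes (13) had 0 with 2, 2, 2 and 3 higher. Mitosis genes had 0 of 15 called, although 15 differences lay above 0 and 8 at an unadjusted p under 0.05, with a median of 0.24. Of the 12 genes that split tumours into separate levels 0 passed and 0 at an unadjusted p under 0.05.

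By likeness to the score over the 56 arrays, centred within array sets, Ngp came first with a Pearson r of 0.66. It was followed by Prss22 (0.63), Mfap3l, Mmp9 and Id1 (0.62 each), Glrx (0.61), Saa3 and Ifitm1 (0.60 each), and Camp and Plcxd2 (0.59 each). Tcaf1 (-0.58), Msrb2 (-0.57), Cgnl1 (-0.55), Zfp87 (-0.54) and Tmem8b (-0.53) ran against it. These values describe arrays that also chose the groups, and carry no test. Fitted as a continuous term over the 56 arrays, the score called 287 genes higher (2.29%) and 175 lower (1.39%), and 62 of the 73 and 24 of the 28 were among them.

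The 12 arrays left out by the rule gave values that the groups had not used. There the score ran from 6.34 to 8.90, and 71 of the 73 higher genes and 26 of the 28 lower genes had a slope of the same sign, against 47% of 12560 genes with a slope above 0. At an unadjusted p under 0.05, 38 and 8 of them did so, against 3.59% of genes with a positive and 2.76% with a negative slope (limma). With the adjustment 64 genes were called higher (0.51%) and 0 lower (347 lower unadjusted), 10 of the 17 squamous and 7 of the 8 hair follicle genes among the higher. These slopes rested on the arrays of animals 4946 and 2426, with scores of 8.90 and 8.87 and Krt6b at 8.95 and 8.02. Without both, 45 of the 73 higher genes kept a slope above 0, against 59.6% of all genes. Of the 28 lower genes 20 kept a slope below 0, which fewer of all genes had than a slope above 0. In that fit 0 genes were called (278 higher and 90 lower unadjusted). Ngp had a slope of 0.05 there (unadjusted p = 0.556, limma), and its values lay between 4.98 and 5.79.

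Animal 3351 entered both sets. Its kept array was among the high arrays, with a score of 8.86 and Krt6b at 8.11, and its array with the suffix R, left out for its 18S level, had a score of 7.11 and Krt6b at 5.01. Levels of array set 2 are not on the same footing as those of the kept arrays, and whether both arrays came from 1 tumour is not stated in the labels.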

How the data were processed

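Biotin-labelled total RNA was measured on Affymetrix arrays. The authors deposited 1 table made with RMA, per the submitters' processing notes, read here as log2 values from their range, 1.68 to 14.57. Log base, settings and scan batches are not given in the sources used here. Genes were named through the platform annotation, with 1 probe set per gene by the highest mean over the 56 kept arrays. All S100a8 and S100a9 probe sets were left out of the tests. Genes were tested where the 95th percentile of the kept arrays exceeded 5.42, the median of all values.

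High and low arrays were compared with limma 3.58.1 in R 4.3.3 (lmFit and eBayes, array set as a block, Benjamini-Hochberg adjustment over 12560 genes). On simulated data 86% of genes changed by 0.5 and 98% changed by 1 were recovered, with 6 false calls. The simulated residuals were normal and independent between genes. In the real arrays genes vary together and single arrays stand far out, so these shares do not give the recovery or false calls here. Arrays come from different animals, and their number limits the precision.

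The groups and the 38 gene lists were chosen with earlier results of these data known, so that no list is independent support. Named genes are all measured members of the neutrophil, granulocyte, NADPH oxidase, attractant, calprotectin receptor, S100 and strain-split lists, the 15 largest called differences each way with the same sign in array set 1, up to 4 members of each other list, and the 10 most and 5 least correlated with the score. Of each other list these are the called members or, with none, the 2 largest differences. A promoter window was taken as the first entry of each gene, and 10093 of the 12560 tested genes had one. Figures and tables used Python 3.11.15.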

Additional observations from a re-analysis of the deposited data

How the results depend on the processing

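The number of called genes changed between alternatives, which share most of their arrays. Higher and lower genes numbered 73 and 28 in the comparison as reported. They numbered 104 and 123 without the block, 0 and 0 in array set 1 alone, 287 and 175 with the score as a continuous term, 0 and 0 for the top 12 against the bottom 12, and 20 and 5 without the filter. A stricter filter gave 51 and 23, the probe set with the largest SD 77 and 16, the squamous list as a further term 0 and 0, the Gapdh difference as a further term 19 and 5, and all 68 arrays with scores centred within array sets 177 and 168. Of alternatives chosen after seeing the data, 13 against 13 arrays within array set 1 gave 0 and 1, leaving out the 2 highest scores 0 and 0, and the 12 left-out arrays 64 and 0, or 0 and 0 without 2 of them. Leaving out each array in turn gave 0 to 170 higher and 0 to 85 lower genes. Members of any list called were 17 as reported, 0 in array set 1 alone, for the top 12, with the squamous term, for 13 against 13, without the 2 highest scores and in 10 left-out arrays, 48 with the continuous score, 2 without the filter, 11 with the stricter filter, 3 with the Gapdh term, 39 with all arrays, and 0 to 31 with 1 array left out. With the largest-SD probe set, 25 of 27 lower genes kept their sign. The Gapdh difference fell from -0.12 to -0.0046 in array set 1. The cause of these changes was not tested, apart from fewer arrays in some fits. The alternative of each other array set was not run, since array sets 3 and 4 hold 1 high array each. No paired analysis was possible because the labels form 1 group. Signal over background was not used here, so the levels of dim genes carry no detection call.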
